A study of Mus musculus with 32 samples.

Results

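Gene expression in injured mouse spinal cord that received Gsx1 was set against sham-operated cord 3 days after the operation. The comparison held 3 libraries labelled SCI+Gsx1 and 3 labelled Sham, taken by treatment and time point from the labels, and these were 6 of the 32 libraries of the series. All mice were C57BL/6J and 8-12 weeks old, per the labels, and the tissue was a snap-frozen piece of cord around the lesion, from which total RNA was sequenced in bulk. Spinal cord injury (SCI) and Gsx1 came together in 1 arm and neither was present in the other, so against sham cord the part of the injury and the part of Gsx1 cannot be told apart. For that reason 3 injured control libraries of the same day (SCI+Ctrl) were tested directly against the Gsx1 libraries, and the difference from sham was tested between 3 and 35 days (sham, n = 3; Gsx1, n = 4, at 35 days). How Gsx1 was delivered, what the control arm received, how the cord was injured and the sex of the mice are not stated in the sources used. Separate mice are not stated for the replicates either, and the p-values cover the variation among these libraries.

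Gsx1 is a homeobox transcription factor that, in the embryonic cord, is made by dorsal progenitors and takes part in the choice between excitatory and inhibitory interneuron fates. In the days after a cord injury, resident microglia and astrocytes become reactive, monocytes enter from the blood and turn into debris-clearing macrophages, and several of these cell types divide. Neurons near the lesion die or stop transcribing genes of synaptic transmission. The genes below are ordered along that course, from alarm signals and immune cells to dividing cells, scar, progenitors, glia and neurons.

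The 6 libraries held 13.0 to 17.2 M counts and 17361 to 18009 detected genes. Pearson's r of log2 CPM (counts scaled to 1 M per library) between libraries of 1 group was 0.979 to 0.9848 in sham and 0.9693 to 0.9825 in Gsx1 cords. On the leading principal component of the 9 libraries of day 3, which held 64.2% of their variance, sham libraries lay at -75.7, -82.4 and -79.8, Gsx1 libraries at 61.1, 39.7 and 22.7 and injured controls at 54.1, 26.8 and 33.4. The tissue held its defining transcripts: Snap25 of neurons, Mbp of myelin and Hoxc8, Hoxc9 and Hoxc10 of the thoracic and lumbar cord were detected in every library (Hoxc10 at 36.0 to 66.4 CPM), and Neurod6, chosen as a forebrain marker, was at 1.32 to 4.38 CPM.

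The Gsx1 transcript did not separate the groups. Its counts were 1, 2 and 3 in the sham libraries and 3, 1 and 4 in the Gsx1 libraries, or 0.071, 0.159 and 0.205 CPM against 0.175, 0.06 and 0.233 CPM. The ranges overlapped, the gene was below the filter on low counts, and a fit without that filter gave a log2 fold change of 0.12 with a standard error (SE) of 0.96. The deposited counts therefore do not check the Gsx1 label.

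Genes of the sex chromosomes did separate the groups in part. Xist, made by the inactive X chromosome, was at 503, 539 and 5.88 CPM in the sham libraries and at 1.92, 17.3 and 0.583 CPM in the Gsx1 libraries. Y-linked Ddx3y was at 19.1, 1.03 and 79.7 CPM in sham and at 84.6, 71.0 and 75.6 CPM in Gsx1 cords. Sham replicates 1 and 2 thus carried high Xist and the other 4 libraries did not, so sex moved with the groups. Sham replicate 1 and Gsx1 replicate 2 had both genes above 10 CPM, and libraries of this kind are termed of mixed sex below. Whether such a library held tissue of more than 1 mouse is not stated. Counts from the libraries under 100 CPM of Xist alone, with 1 sham library left, were lower for most lists, and are given for some of these below.

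At 3 days, expression differed from sham across much of the transcriptome. Of 16314 genes tested with edgeR's quasi-likelihood test, 6148 (37.7%) passed a Benjamini-Hochberg adjusted p of 0.05 and are termed called, with 3308 (20.3%) higher, or risen, and 2840 (17.4%) lower, or fallen, in Gsx1 cords. Among called genes, 1717 (10.5% of those tested) were at least 2-fold higher and 603 (3.7%) at least 2-fold lower, while the median log2 fold change of all genes was 0.01. The 3 Gsx1 values lay above all 3 sham values for 4584 genes (28.1%) and below them for 4350 (26.7%). Fewer genes were called without Gsx1 replicate 1 (2558 higher and 1280 lower, 3838 in all), and with the libraries under 100 CPM of Xist alone (2309 higher and 1557 lower, 3866 in all). In bulk tissue, fewer cells of a type and less RNA per cell cannot be told apart, and this holds for each cell type named below. The shares of 20.3% risen and 17.4% fallen stand beside every list count against sham given below.

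**Figure D1:**
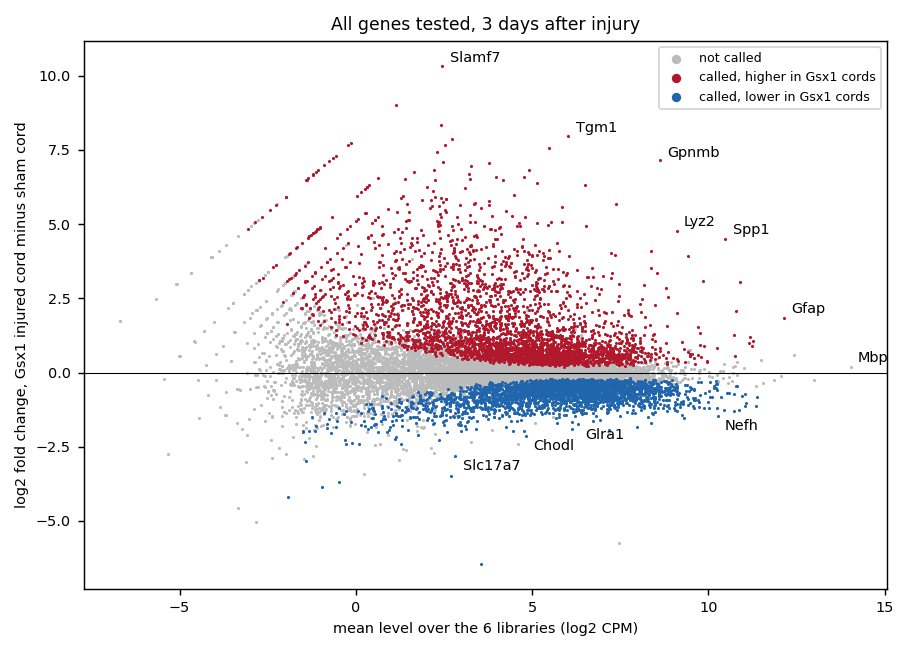
Log2 fold change of Gsx1 against sham cord at 3 days (vertical axis) against the mean level over the 6 libraries (log2 CPM, horizontal axis), 1 point per gene tested. Red points are called and higher in Gsx1 cords, blue points called and lower, grey points not called. Rises reach farther from 0 than falls: Gpnmb rose by 7.15 on the log2 scale and Slc17a7 fell by 2.80.

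Some of the genes named for the size of their rise or by list are described first. Gpnmb, a membrane glycoprotein of lipid-laden phagocytes (chromosome 6, 49036546 to 49070929 on GRCm38, GENCODE), was at 3.91, 8.33 and 4.51 CPM in sham and at 1220, 694 and 455 CPM in Gsx1 cords. This was a 142-fold difference (log2 fold change 7.15, SE 0.61, adjusted p = 2.64e-08), and the lowest Gsx1 library was far above the highest sham library. Arg1, the arginase of wound-associated macrophages, went from 0.142, 1.03 and 0.273 CPM to 159, 88.7 and 19.6 CPM (log2 fold change 7.56, SE 1.45). Tgm1, a transglutaminase on the reactive astrocyte list, went from 0.568, 0.555 and 0.41 CPM to 184, 149 and 56.0 CPM (7.97, SE 0.67, adjusted p = 2.64e-08).

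Some of these genes were absent or nearly so in sham cord. Slamf7, a receptor of immune cells, had 0 counts in all sham libraries and 561 in the Gsx1 libraries, at least 152-fold higher against a floor of 3 counts over the group. Its 3 Gsx1 values, 21.4, 8.77 and 2.74 CPM, spread widely. Atp6v0d2, a proton pump subunit of osteoclasts and macrophages, also had 0 sham counts and reached 5.7, 3.12 and 4.49 CPM (at least 61.3-fold higher). Coagulation factor F7 had 1 count in sham and 547 in Gsx1 cords, a ratio of 443 with a 95% counting interval of 79.2 to 17500, and apolipoprotein Apoc2 had 2 against 588 (238, 65.6 to 1970). These intervals cover counting error alone.

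**Figure D2:**
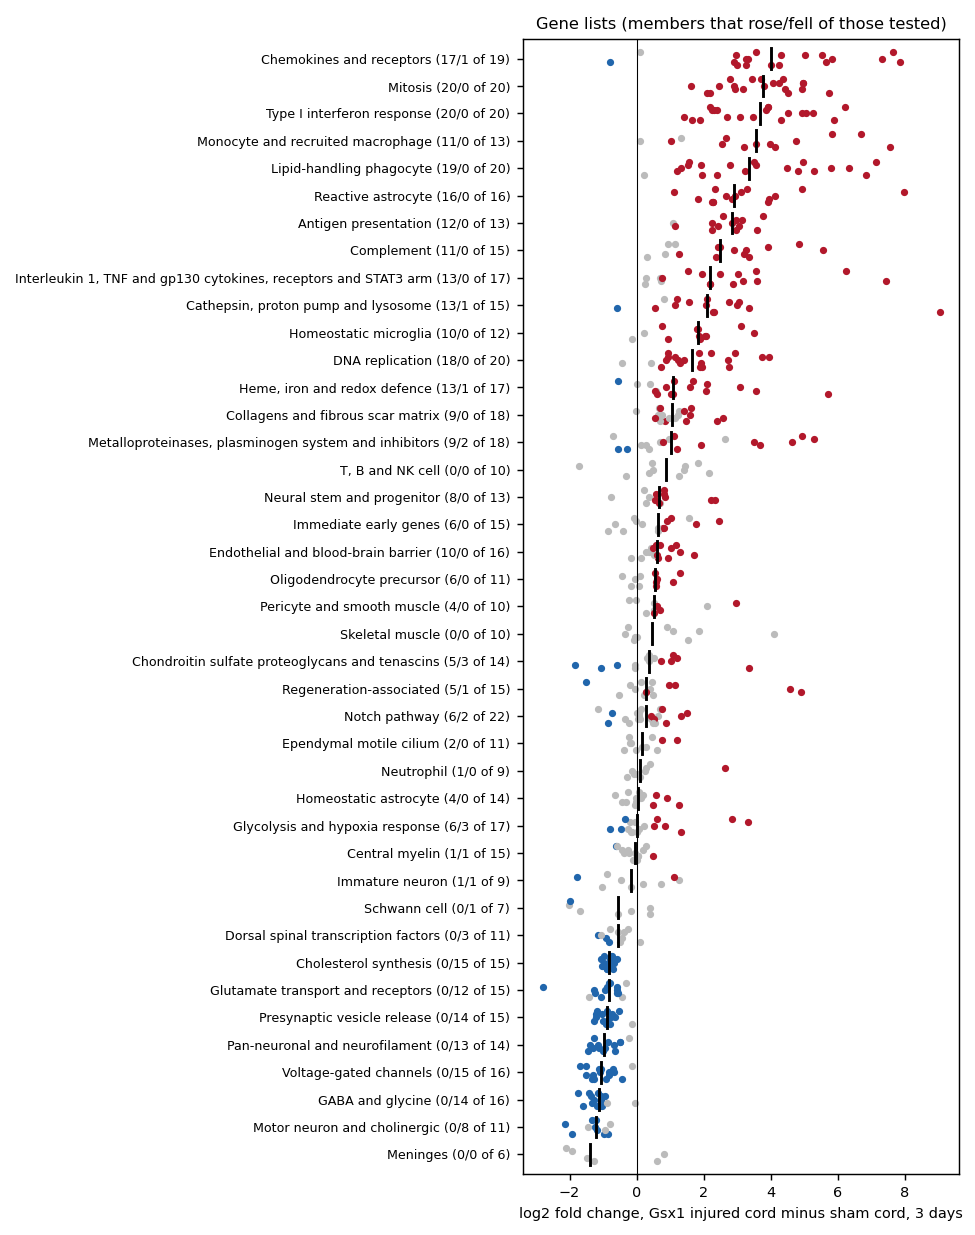
Log2 fold change of Gsx1 against sham cord at 3 days (horizontal axis) for each tested member of the 41 gene lists with at least 5 tested members, ordered by median (black bar). Red members rose, blue members fell, grey members were not called. Chemokine, mitosis and interferon lists lie to the right (medians 4.01, 3.76 and 3.67), and motor neuron and meningeal lists to the left (-1.21 and -1.39).

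Most genes on the list of alarm cytokines, their receptors and their signalling were higher in Gsx1 cords. The list covers the interleukin 1, tumour necrosis factor and gp130 families and their STAT3 arm, and also holds Tgfb1 and Il10. Of 17 tested genes 13 rose and 0 fell, with a median log2 fold change of 2.19. Values of the cytokines Il1a, Il1b and Tnf are not given here. Il1rn, the antagonist of the interleukin 1 receptor, had 2 counts in sham against 497 (a ratio of 201, counting interval 55.4 to 1670) and stood at 6.63, 7.38 and 15.2 CPM in Gsx1 cords. Socs3, a feedback inhibitor that STAT3 induces, went from 3.34, 2.94 and 2.39 CPM to 46.7, 34.6 and 23.6 CPM (12.1-fold, log2 fold change 3.59, SE 0.39). Tgfb1, an inducer of scar matrix, went from 7.53, 7.06 and 9.91 CPM to 59.4, 40.8 and 37.4 CPM (5.6-fold). The shared receptor chain Il6st and the receptor accessory chain Il1rap were not called (log2 fold changes 0.27 and 0.25). Il6 and Il10 had at most 6 counts in any of these libraries and were not tested.

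Immediate early genes, the first transcripts that follow cell stimulation, moved less. Of 15 tested, 6 rose and 0 fell, beside 20.3% and 17.4% of all genes, with a median of 0.63. Myc was at 2.2, 1.82 and 2.8 CPM in sham and at 15.8, 10.9 and 11.0 CPM in Gsx1 cords (5.49-fold), and Junb rose 3.41-fold. Fos was at 16.3, 20.2 and 24.1 CPM against 42.1, 26.5 and 25.3 CPM and was not called (adjusted p = 0.0771), although the groups did not overlap.

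Chemokines draw leukocytes into tissue. Of 19 tested chemokines and receptors, 17 rose and 1 fell (median 4.01). Ccl2, the main attractant of monocytes, went from 0.568, 0.555 and 0.479 CPM to 35.0, 24.0 and 21.7 CPM (49.7-fold, log2 fold change 5.64, SE 0.67, adjusted p = 6.7e-07). Ccl7, a second attractant of monocytes, had 2 counts in sham and 672 in Gsx1 cords (a ratio of 272, counting interval 75.1 to 2250). The receptor Cxcr4 rose 7.8-fold. The member that fell was Cx3cl1, a membrane-bound chemokine of neurons, from 211, 190 and 222 CPM to 103, 118 and 141 CPM (log2 fold change -0.78); it was named after its values were seen. Cxcl12 was at 60.6 to 95.9 CPM in sham and at 77.2 to 93.3 CPM in Gsx1 cords and was not called.

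Most genes of recruited monocytes and macrophages rose together. Of 13 tested, 11 rose (median 3.57), and the summed level of the list was 149, 116 and 125 CPM in sham against 2810, 1560 and 905 CPM in Gsx1 cords. Lyz2, the lysozyme of myeloid cells, went from 41.1, 37.1 and 38.2 CPM to 1570, 1010 and 587 CPM (27.2-fold, log2 fold change 4.76, SE 0.47, adjusted p = 9.96e-08). Coagulation factor F13a1 rose 17.3-fold and thrombospondin Thbs1 rose 15.7-fold. Ms4a7, a macrophage membrane protein, went from 0.071, 0.317 and 0.137 CPM to 22.9, 23.4 and 8.63 CPM. In this list Gsx1 replicate 1 was the highest and replicate 3 the lowest. Mrc1, the mannose receptor, was at 3.62 to 6.32 CPM against 6.12 to 20.1 CPM and was not called. Cd163 was at 1.75 to 4.44 CPM against 2.4 to 4.77 CPM and was not called either (log2 fold change 0.1). Its values under the alternatives are not given here.

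Neutrophil genes did not follow the monocyte genes. Of 9 tested members, 1 rose, beside 20.3% of all genes, and the median was 0.10. The summed level was 106, 58.2 and 130 CPM in sham and 46.2, 199 and 91.5 CPM in Gsx1 cords. The member that rose was the collagenase Mmp8, from 1.7, 2.22 and 1.44 CPM to 17.0, 10.7 and 5.6 CPM. It was not called without sham replicate 1, sham replicate 3 or Gsx1 replicate 1, nor with low-Xist libraries alone. Genes of T, B and NK cells were near the limit of detection: 0 of 10 tested were called, beside 37.7% of all genes. The whole list summed to 1.78 to 3.81 CPM in sham and 4.13 to 4.67 CPM in Gsx1 cords, without overlap. Gzmb, below the filter, had 0 counts in each sham library and 8, 8 and 1 in the Gsx1 libraries. A fit without the filter, DESeq2, and fits without sham replicate 2 or 3 each called 1 member as risen.

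Phagocyte and lysosome genes were among the most abundant of those that rose. Of 20 genes of lipid-handling phagocytes, 19 rose (median 3.35). Spp1, the secreted phosphoprotein osteopontin, went from 143, 112 and 111 CPM to 3530, 2100 and 2570 CPM (22.5-fold, log2 fold change 4.49, SE 0.42, adjusted p = 4.27e-08). Cd68, a lysosomal glycoprotein, rose 30.9-fold, and the galectin Lgals3 rose 80.4-fold. The growth factor Igf1, the 1 member not called, was at 13.3 to 23.9 CPM in sham and at 14.4 to 22.9 CPM in Gsx1 cords. Of 15 genes of cathepsins, the proton pump and other lysosomal proteins, 13 rose and 1 fell (median 2.10). The protease Ctsd went from 419, 405 and 426 CPM to 4870, 2860 and 2540 CPM (8.21-fold). The member that fell, named after its values were seen, was Atp6v1a, a proton pump subunit also used by synaptic vesicles (log2 fold change -0.60, SE 0.17).

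Genes that mark resting microglia were higher as well. Of 12 tested, 10 rose (median 1.83). Tmem119 went from 11.9, 12.9 and 15.7 CPM to 70.2, 53.5 and 45.8 CPM (4.19-fold, SE 0.23 on the log2 scale, adjusted p = 2.5e-07). Cx3cr1, the receptor of Cx3cl1, rose 4.12-fold, and the receptor Csf1r, which microglia need to survive, rose 3.72-fold. The groups did not overlap for these 3 genes. Sall1, a transcription factor of microglia that other cord cells also make, was at 58.9 to 70.0 CPM against 69.5 to 79.4 CPM and was not called.

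**Figure D3:**
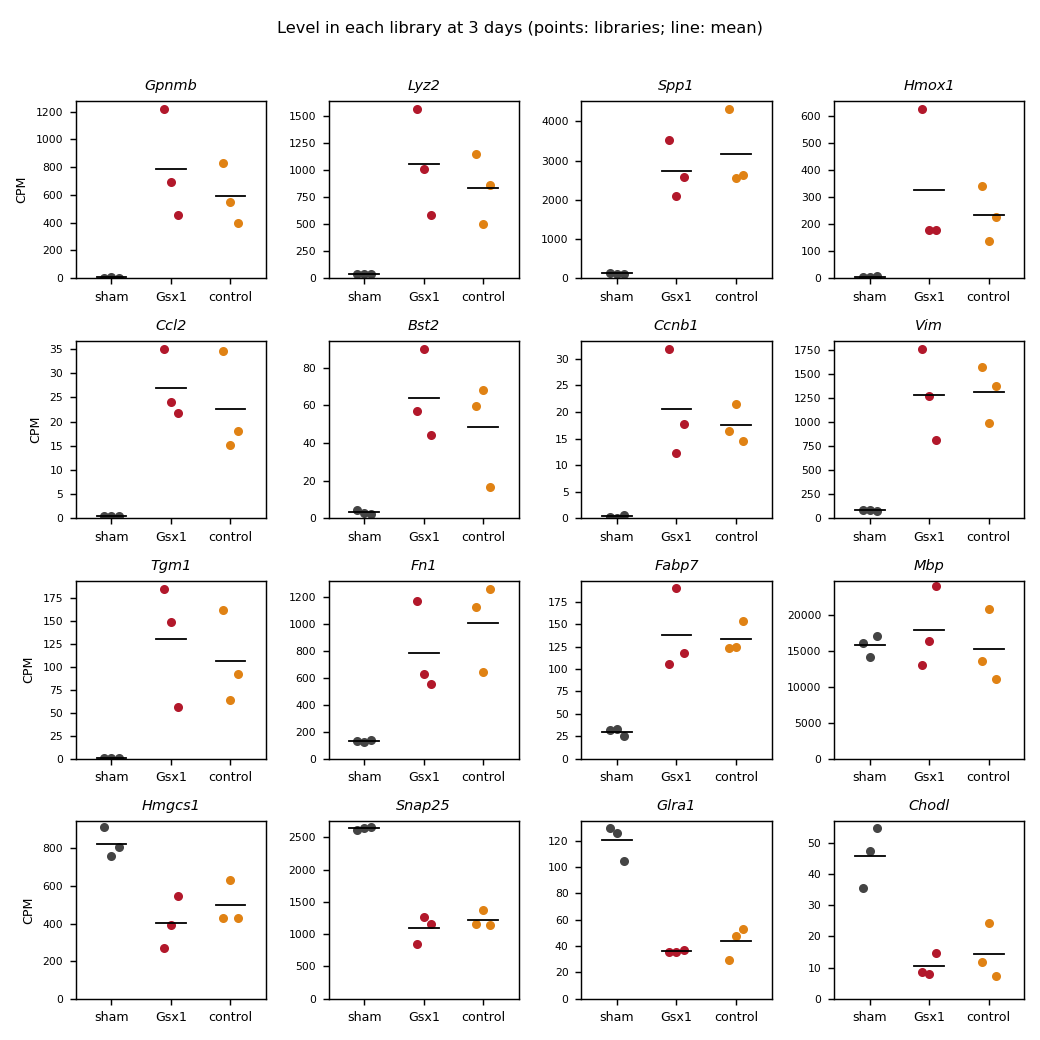
Level of 16 genes in each library at 3 days (CPM, vertical axis from 0) in sham, Gsx1 and injured control cords, 3 libraries each; the line is the group mean. Gsx1 values lie apart from sham values in every panel but Mbp, and Gsx1 and injured control values overlap in all 16.

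Complement genes, whose products tag debris and synapses, rose in 11 of 15 cases (median 2.47). The initiating subunit C1qa went from 32.8, 25.7 and 22.8 CPM to 367, 237 and 232 CPM (10.3-fold). C3ar1, the receptor of the C3a fragment, went from 2.56, 2.78 and 1.78 CPM to 171, 105 and 60.5 CPM (47.4-fold, log2 fold change 5.57, SE 0.50, adjusted p = 3.04e-08). The inhibitor Serping1 was not called (log2 fold change 0.94).

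All 20 tested genes of the type I interferon response rose in Gsx1 cords (median 3.67), and the ranking of the libraries differed from that of the monocyte genes. The summed level was 182, 197 and 171 CPM in sham and 629, 1690 and 1290 CPM in Gsx1 cords, so that Gsx1 replicate 1 was here the lowest. Bst2, a membrane tether of enveloped viruses, went from 4.62, 2.7 and 2.32 CPM to 57.2, 89.9 and 44.3 CPM (19.8-fold, log2 fold change 4.31, SE 0.68, adjusted p = 2.71e-05). Zbp1, a sensor of Z-form nucleic acid, went from 0.213, 0.159 and 0.273 CPM to 8.56, 21.1 and 20.9 CPM (74.7-fold). The RNA sensors Ddx58 and Ifih1 rose 6.5-fold and 5.25-fold, and Irf9, the DNA-binding subunit of the factor that interferon activates, rose 4.71-fold. Injured controls had summed levels of 1100, 1850 and 363 CPM. With low-Xist libraries alone 17 of the 20 rose.

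Antigen presentation genes rose in 12 of 13 cases (median 2.84). B2m, the light chain of class I molecules, went from 72.6, 64.4 and 62.3 CPM to 580, 647 and 320 CPM (7.76-fold), and the immunoproteasome subunit Psmb8 rose 12-fold. Class I heavy chains H2-K1 and H2-D1 rose 5.98-fold and 4.74-fold, but reads of these near-identical genes may have been divided between copies. Ciita, the regulator of class II genes, was at 1.64 to 2.98 CPM against 3.91 to 5.53 CPM and was not called (adjusted p = 0.122).

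In the interferon, cell cycle and cholesterol lists most members moved 1 way, so promoter windows are described with the motifs of the factors known to act on such genes. Windows run from 250 bases before to 50 after the start of the gene (RefSeq, GRCm38.p6), and both strands were searched. The interferon-stimulated response element, GAAA, any 2 bases and GAAA again, was in 9 of 17 windows of the interferon list (52.9%) and in 3.44% of all 32851 windows. For the antigen presentation list it was in 1 of 12 windows (8.3%). The E2F letters of replication genes, TTTCCCGC or TTTGGCGC, were in 9 of 18 windows of the replication list (50%) and in 1.56% of all windows. The cell cycle homology region of mitotic genes, TTTGAA, was in 13 of 18 windows of the mitosis list (72.2%) against 17.89%, and CCAAT was in 16 of 18 (88.9%) against 37.41%. The sterol regulatory element (TCAC, any base, CCAC) was in 1 of 11 windows of the cholesterol list (9.1%) against 1.24%. Windows were found for 15 of 20 interferon, 10 of 13 antigen presentation, 17 of 20 replication, 17 of 20 mitosis and 9 of 15 cholesterol genes. A match describes the letters of the window and shows no binding. One window of each kind is shown 5′ to 3′ on the strand of its gene, with the matched letters in capitals: Bst2 (chr8:71537423-71537722, minus strand, 2 overlapping interferon element matches), Mcm6 (chr1:128359656-128359955, minus strand, 2 E2F matches) and Cenpf (chr1:189688037-189688336, minus strand, 1 TTTGAA match).
Bst2: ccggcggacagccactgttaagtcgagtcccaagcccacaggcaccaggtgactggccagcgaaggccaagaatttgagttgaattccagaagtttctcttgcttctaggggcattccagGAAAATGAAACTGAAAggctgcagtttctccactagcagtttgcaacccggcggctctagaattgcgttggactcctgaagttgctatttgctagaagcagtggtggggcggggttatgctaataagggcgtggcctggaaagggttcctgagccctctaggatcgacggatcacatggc
Mcm6: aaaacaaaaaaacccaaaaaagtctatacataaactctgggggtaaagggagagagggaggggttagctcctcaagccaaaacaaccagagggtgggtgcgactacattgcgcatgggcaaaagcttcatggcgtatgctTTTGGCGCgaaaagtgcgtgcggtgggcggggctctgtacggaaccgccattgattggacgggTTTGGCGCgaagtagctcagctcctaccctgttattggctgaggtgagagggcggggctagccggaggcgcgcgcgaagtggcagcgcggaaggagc
Cenpf: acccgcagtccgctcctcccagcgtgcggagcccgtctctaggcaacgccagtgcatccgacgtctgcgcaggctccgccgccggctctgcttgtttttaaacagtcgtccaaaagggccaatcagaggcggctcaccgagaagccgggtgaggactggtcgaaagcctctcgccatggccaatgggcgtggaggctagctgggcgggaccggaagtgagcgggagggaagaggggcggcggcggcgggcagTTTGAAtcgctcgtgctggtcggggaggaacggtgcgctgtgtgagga

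Most cell division genes were higher. All 20 mitosis genes rose (median 3.76), with a summed level of 52.0, 46.7 and 45.9 CPM in sham and 787, 358 and 441 CPM in Gsx1 cords. Ccnb1, the cyclin of entry into mitosis, went from 0.355, 0.0793 and 0.684 CPM to 31.8, 12.2 and 17.8 CPM (52.6-fold, log2 fold change 5.72, SE 0.60, adjusted p = 1.67e-07). Top2a, which untangles replicated DNA, went from 2.42, 2.22 and 3.49 CPM to 136, 56.4 and 64.4 CPM (31.3-fold). The kinetochore protein Cenpf, whose window is printed above, rose 22.6-fold. Of 20 DNA replication genes 18 rose (median 1.65). The helicase subunits Mcm5, Mcm6 and Mcm3 rose 7.66-fold, 6.74-fold and 6.65-fold, and Mcm6 went from 5.54, 4.44 and 6.9 CPM to 53.8, 29.6 and 31.0 CPM. Rpa2 and Ccne1 were not called (log2 fold changes 0.42 and -0.45).

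Genes of heme, iron and redox handling rose in 13 of 17 cases and fell in 1 (median 1.07). Hmox1, the enzyme that opens the heme ring, was near constant in sham, at 6.25, 6.27 and 6.43 CPM, and reached 627, 177 and 178 CPM in Gsx1 cords (51.8-fold, log2 fold change 5.69, SE 0.51, adjusted p = 3.04e-08). The metal transporter Slc11a1 rose 11.8-fold, and the ferritin light chain Ftl1 rose 8.47-fold, with near-identical processed copies of Ftl1 in the genome. Ferritin heavy chain Fth1 was at 4570, 4280 and 4380 CPM against 6860, 7250 and 5760 CPM and was not called (adjusted p = 0.0535). The member that fell, Tfrc, the transferrin receptor, was named after its values were seen (log2 fold change -0.57). Red cell genes overlapped between the groups: of the 2 tested 0 were called. The list summed to 139, 1030 and 543 CPM in sham and 1630, 479 and 784 CPM in Gsx1 cords. The globin genes Hba-a1 and Hba-a2 had 0 counts in all these libraries, and Hbb-bt was absent from the deposited counts. The sum thus rested on Hbb-bs (Beta-s in the counts) and Alas2.

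Of 17 glycolysis and hypoxia genes 6 rose and 3 fell (median 0.02), beside 20.3% risen and 17.4% fallen over all genes. Hexokinase Hk2 went from 5.97, 4.84 and 6.29 CPM to 52.7, 36.5 and 32.8 CPM (7.11-fold), and the lactate exporter Slc16a3 rose 9.99-fold. The housekeeping enzyme Gapdh was at 1280 to 1410 CPM against 1350 to 1460 CPM and was not called. The 3 that fell, named after their values were seen, were Ldhb, Pfkp and the angiogenic factor Vegfa (log2 fold changes -0.48, -0.36 and -0.79). Without Gsx1 replicate 1, without sham replicate 3 or with low-Xist libraries alone, 1 gene of the list fell.

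Reactive astrocyte genes rose in 16 of 16 cases (median 2.89). Vim, an intermediate filament of reactive astrocytes and of many other cells, went from 90.3, 86.5 and 75.5 CPM to 1760, 1270 and 814 CPM (15.2-fold, log2 fold change 3.93, SE 0.40, adjusted p = 1.61e-07). Gfap, the astrocyte filament, was at 1750 to 2290 CPM in sham and at 6550 to 7350 CPM in Gsx1 cords. The membrane proteins Cd44, Emp1 and Cd109 rose 7.57-fold, 9.8-fold and 15.5-fold. Several of these genes, Cd44 and Vim among them, are also made by macrophages, whose genes moved with them, and that part was not tested. Of 14 genes of astrocytes at rest, 4 rose and 0 fell (median 0.03), beside 20.3% and 17.4% of all genes. Aldh1l1, a folate enzyme of astrocytes, went from 72.2, 68.2 and 71.1 CPM to 184, 176 and 146 CPM (2.39-fold, SE 0.11 on the log2 scale, adjusted p = 2.64e-08). The water channel Aqp4 rose 1.88-fold. The glutamate transporter Slc1a2 was at 2930, 3250 and 2790 CPM against 2050, 2000 and 2490 CPM and was not called (adjusted p = 0.175).

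Collagen and fibrous scar genes rose in 9 of 18 cases (median 1.06). Fibronectin Fn1 went from 134, 124 and 140 CPM to 1170, 627 and 555 CPM (5.92-fold, log2 fold change 2.56, SE 0.42, adjusted p = 4.97e-05), and the basement membrane collagens Col4a1 and Col4a2 rose 3.06-fold and 1.79-fold. The fibrillar collagens Col1a2 and Col3a1 were not called: Col3a1 was at 82.3, 28.1 and 35.1 CPM in sham and at 158, 87.2 and 106 CPM in Gsx1 cords (log2 fold change 1.27, SE 0.87). Sham replicate 1 stood apart from the other sham libraries for both. Without sham replicate 2, or with low-Xist libraries alone, 5 members rose. With the replicate number as a block in a fit of the 6 libraries, 17 of 18 rose, against 12 in that fit without the block. Injured controls, set against the same sham libraries, had 17 of 18 members risen and a median of 1.87.

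Among 14 chondroitin sulfate proteoglycans, tenascins and their partners 5 rose and 3 fell (median 0.37), beside 20.3% and 17.4% of all genes. Tenascin Tnc went from 11.5, 12.2 and 10.6 CPM to 195, 82.7 and 69.2 CPM (10.1-fold), and neurocan Ncan rose 2.29-fold. The link protein Hapln1 fell from 31.8, 29.2 and 29.8 CPM to 6.87, 10.0 and 8.28 CPM (log2 fold change -1.85, SE 0.43), and Acan and Bcan, named after their values were seen, fell by 1.06 and 0.58 on the log2 scale. Without Gsx1 replicate 1, or with low-Xist libraries alone, 1 member fell, and with the replicate block in the 6 libraries 8 rose. Of 18 metalloproteinases, plasminogen genes and inhibitors 9 rose and 2 fell (median 1.03), beside the same 20.3% and 17.4%. The inhibitor Timp1 went from 2.56, 1.11 and 0.889 CPM to 63.3, 50.8 and 25.0 CPM (30.3-fold). Mmp15 and Timp2, the 2 that fell, were named after their values were seen, and 0 fell without sham replicate 2 or with low-Xist libraries alone. Leaving out Gsx1 replicate 1 or Gsx1 replicate 2 left 1.

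Vessel genes moved by smaller amounts. Of 16 endothelial genes 10 rose and 0 fell (median 0.60). Pecam1, an adhesion molecule of endothelium and leukocytes, went from 33.0, 32.1 and 30.7 CPM to 86.7, 70.3 and 59.4 CPM (2.26-fold), and Cldn5, the tight junction claudin, rose 2.02-fold. The receptor Flt1 was at 93.2 to 98.2 CPM against 93.6 to 110 CPM and was not called. Leaving out Gsx1 replicate 1 left 5 risen members, and leaving out sham replicate 2 or 3, or all libraries with high Xist, left 6. Of 10 pericyte and smooth muscle genes 4 rose (median 0.52), beside 20.3% of all genes. Tagln, an actin-binding protein, was at 15.8, 11.3 and 13.5 CPM against 178, 90.8 and 48.1 CPM.

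Neural stem and progenitor genes, the class to which Gsx1 belongs in the embryo, rose in 8 of 13 cases (median 0.68). Nes, a filament of progenitors and of reactive astrocytes, went from 31.5, 27.9 and 32.2 CPM to 259, 109 and 94.4 CPM (5.04-fold, log2 fold change 2.33, SE 0.38, adjusted p = 4.51e-05). Fabp7, a fatty acid carrier of radial glia, went from 31.4, 32.6 and 25.5 CPM to 106, 190 and 118 CPM (4.63-fold). The transcription factors Sox9 and Sox2, which adult astrocytes also make, rose 1.8-fold and 1.47-fold. Msi1 and Prom1 were not called (log2 fold changes 0.27 and 0.22). Without Gsx1 replicate 1 or without sham replicate 3, 5 members rose.

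Of 22 Notch pathway genes 6 rose and 2 fell (median 0.28), beside 20.3% risen and 17.4% fallen over all genes. The counts of this list were thus not far from those shares. The receptors Notch1, Notch2 and Notch4 rose 1.7-fold, 1.82-fold and 2.48-fold, and Notch1 was at 66.3, 59.8 and 59.1 CPM in sham and at 119, 92.0 and 105 CPM in Gsx1 cords. The ligand Dll1 fell from 9.87, 14.8 and 13.3 CPM to 6.11, 6.42 and 8.69 CPM (log2 fold change -0.84, SE 0.20). The target Heyl, named after its values were seen, fell by 0.73, with overlapping groups (8.89 to 21.7 CPM against 6.93 to 11.8 CPM). With the replicate number as a block 1 member fell, and Heyl was not called. The count of 1 was also left without sham replicate 1 or 3, without Gsx1 replicate 1 or 2, and with low-Xist libraries alone. The target gene Hey1 was at 50.8 to 53.9 CPM against 41.6 to 64.2 CPM and was not called.

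Transcription factors of the dorsal cord, where Gsx1 acts in development, did not rise. Of 15 listed, 11 could be tested, and Gsx1, Gsx2, Ptf1a and Dbx1 had too few counts. Of those tested 0 rose and 3 fell (median -0.56), beside 20.3% and 17.4% of all genes. Pax2, a factor of inhibitory interneurons, went from 31.5, 33.2 and 34.8 CPM to 15.4, 20.7 and 20.2 CPM (log2 fold change -0.82, SE 0.31, adjusted p = 0.0379), and Lhx1 and Pax8 fell by 1.15 and 0.92. The list had 0 fallen members without Gsx1 replicate 1, without sham replicate 2 or with low-Xist libraries alone, 1 without Gsx1 replicate 2, and a fit of the 6 libraries called 5, with or without the replicate block. Zic1 was at 31.6 to 35.8 CPM against 23.8 to 32.7 CPM and was not called. Among 9 genes of immature neurons 1 rose and 1 fell, beside 20.3% and 17.4% of all genes. The tubulin Tubb2b, also made by glia, rose from 149, 145 and 145 CPM to 363, 304 and 280 CPM. Neurod1 fell from 6.46, 2.46 and 2.53 CPM to 1.05, 0.72 and 1.52 CPM. A fit of the 6 libraries, with or without the block, called 2 as risen and 4 as fallen, and the block over all libraries 1 and 2. Without sham replicate 1, or with low-Xist libraries alone, 0 fell, and 2 fell without Gsx1 replicate 3. Stmn1 and Sox4 were not called (log2 fold changes -0.46 and 0.74).

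Oligodendrocyte precursor genes rose in 6 of 11 cases (median 0.56), beside 20.3% of all genes. Gpr17, a receptor of precursors that begin to differentiate, went from 79.1, 74.2 and 79.6 CPM to 193, 196 and 181 CPM (2.45-fold, log2 fold change 1.29, SE 0.25, adjusted p = 2.77e-04). The proteoglycan Cspg4 and the growth factor receptor Pdgfra, both of precursors and pericytes, rose 2.13-fold and 1.48-fold, and Olig1 rose 1.52-fold. Without sham replicate 3, 3 members rose. Of 15 genes of central myelin 1 rose and 1 fell (median -0.05), beside 20.3% and 17.4% of all genes. Without Gsx1 replicate 3 the counts were 0 and 4 (median -0.21), without Gsx1 replicate 1 they were 1 and 0, without sham replicate 2 they were 0 and 1, with low-Xist libraries alone 0 and 0, and in the blocked fit of the 6 libraries 1 and 3. Mbp, the major myelin basic protein, was at 16100, 14200 and 17100 CPM in sham and at 13100, 16400 and 24100 CPM in Gsx1 cords, and the groups overlapped. Fa2h, which hydroxylates myelin lipids, fell from 275, 250 and 275 CPM to 110, 175 and 232 CPM, and the tight junction protein Cldn11 rose 1.4-fold.

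All 15 cholesterol synthesis genes fell (median -0.82, range -1.06 to -0.60), and none of the sham and Gsx1 values overlapped in any of them. Hmgcs1, an early enzyme of the pathway, went from 913, 759 and 805 CPM to 271, 394 and 547 CPM (log2 fold change -1.03, SE 0.23, adjusted p = 0.00104). Fdft1, which makes squalene, went from 168, 155 and 140 CPM to 88.1, 106 and 111 CPM (-0.60, SE 0.09, adjusted p = 2.55e-05). Insig1, a sensor of sterols, fell by 1.06. In this list Gsx1 replicate 1 was the lowest, with a summed level of 1150 CPM against 1510 and 1910 CPM in the other Gsx1 libraries and 2640 to 3140 CPM in sham. With low-Xist libraries alone 12 of the 15 fell. Injured controls had 11 of the 15 genes fallen against the same sham libraries, at 1540 to 2200 CPM.

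Neuronal genes fell across all 6 lists. Of 14 pan-neuronal and neurofilament genes 13 fell (median -0.97), with summed levels of 14500, 14000 and 15000 CPM in sham and 5860, 7670 and 7590 CPM in Gsx1 cords. Snap25, a fusion protein of synaptic vesicles, went from 2610, 2640 and 2660 CPM to 846, 1270 and 1160 CPM (log2 fold change -1.27, SE 0.27, adjusted p = 6.36e-04). The heavy and light neurofilaments Nefh and Nefl fell by 1.46 and 1.30. The microtubule protein Mapt, which glia also make, was at 555 to 575 CPM against 409 to 529 CPM and was not called. Of 15 genes of vesicle release 14 fell (median -0.89), among them Vamp1 by 1.21, and of 16 voltage-gated channel genes 15 fell (median -1.07). The sodium channel Scn8a of the axon initial segment went from 527, 516 and 495 CPM to 173, 213 and 223 CPM (-1.34, SE 0.24), and its partner Scn4b fell by 1.70.

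Transmitter genes of both signs fell. Of 16 GABA and glycine genes 14 fell (median -1.13). Glra1, a glycine receptor subunit of the cord, went from 130, 126 and 105 CPM to 35.3, 35.7 and 37.0 CPM (log2 fold change -1.74, SE 0.30, adjusted p = 8.32e-05), and Glrb, its partner, fell by 1.28. Of 15 glutamate genes 12 fell (median -0.82). The vesicular transporter Slc17a6 of cord neurons went from 229, 254 and 230 CPM to 79.7, 114 and 104 CPM (-1.26), and Slc17a7, the transporter of sensory afferents and forebrain, from 20.1, 9.2 and 7.86 CPM to 2.56, 2.64 and 0.117 CPM, the largest fall under the rule for named genes (-2.80, SE 0.89, adjusted p = 0.0155). Of 11 motor neuron and cholinergic genes 8 fell (median -1.21). Chodl, a marker of fast motor neurons, went from 35.5, 47.4 and 54.6 CPM to 8.56, 7.99 and 14.7 CPM (-2.14, SE 0.39), and the choline transporter Slc5a7 fell by 1.92. Chat, which makes acetylcholine, fell by 1.25, and Prph was not called (-0.78).

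The neuronal counts rested in part on Gsx1 replicate 1, which had the lowest level of each neuronal list. Without it, fallen members numbered 3 of 15 for vesicle release, 8 of 16 for channels, 6 of 15 for glutamate and 7 of 16 for GABA and glycine. Without sham replicate 2, 9 vesicle and 6 glutamate genes fell, and with low-Xist libraries alone 8 and 6. Other genes among the largest falls were the nicotinic subunit Chrna2 (3.48, 3.33 and 4.03 CPM against 0.757, 0.841 and 0.816 CPM) and the opioid receptor Oprm1 (5.4, 5.95 and 5.06 CPM against 1.34, 0.781 and 1.63 CPM), both below their sham values in every Gsx1 library.

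Regeneration-associated genes of injured neurons divided. Of 15 tested 5 rose and 1 fell (median 0.29), beside 20.3% and 17.4% of all genes. Atf3, a transcription factor of injured neurons, went from 1.14, 1.03 and 1.09 CPM to 43.0, 33.8 and 21.1 CPM (29.8-fold, log2 fold change 4.90, SE 0.52, adjusted p = 1.67e-07), and Sprr1a rose 24-fold. The transcription factor Klf6 rose 2.21-fold, and the peptide Vip fell by 1.52. Macrophages also make Atf3, and that part was not tested. In a fit of the 6 libraries without a block 8 members rose. Of 11 genes of the ependymal motile cilium 2 rose, Dnahc11 (2.31-fold) and Rsph1 (1.68-fold), beside 20.3% of all genes. Rsph1 was not called with the replicate number as a block. The ciliary factor Foxj1 was at 23.2 to 36.2 CPM against 30.1 to 38 CPM and was not called.

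Markers of tissue beside the cord were also measured. Of 7 Schwann cell genes 1 fell, beside 17.4% over all genes, and the median was -0.56 (-0.11 without sham replicate 1 and 0.06 with low-Xist libraries alone). They summed to 529, 368 and 308 CPM in sham and to 125, 224 and 197 CPM in Gsx1 cords. Ncmap, of peripheral myelin, fell by 1.99 (adjusted p = 0.0273). Meningeal genes summed to 118 to 174 CPM in sham and to 78.7 to 97.5 CPM in Gsx1 cords, with 0 of 6 called. In the injured controls these sums were 222 to 1150 CPM and 85.8 to 354 CPM. With the replicate number as a block 2 meningeal genes fell. A fit of the 6 libraries called 4 meningeal and 3 Schwann cell genes as fallen and 1 Schwann cell gene as risen, with or without the block, and with the block also 2 meningeal genes as risen. Skeletal muscle genes summed to 4.12 to 5.95 CPM in sham and 5.47 to 7.32 CPM in Gsx1 cords, and 0 of 10 were called. The part of attached root and meninges in the matrix results was not tested.

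Some calls of single genes named above rested on 1 library. Without Gsx1 replicate 1 the genes Acan, Bcan, Fa2h, Heyl, Ldhb, Lhx1, Mmp15, Ncmap, Pax8, Pdgfra, Tfrc, Vegfa and Vip were not called. Without Gsx1 replicate 2 this held for Bcan, Heyl, Lhx1, Ncmap, Oprm1, Tfrc and Timp2, and without Gsx1 replicate 3 for Acan, Cldn11, Pfkp, Slc17a7 and Vip. Without sham replicate 1 it held for Bcan, Heyl, Lhx1, Ncmap, Neurod1, Pdgfra, Slc17a7 and Vip. Without sham replicate 2 it held for Cldn11, Lhx1, Mmp15, Ncmap, Pax8, Pdgfra, Timp2 and Vip, and without sham replicate 3 for Heyl, Ldhb, Pdgfra and Vegfa. Pax2 was called in 0 of these 6 fits, and Rsph1 in 1, the one without sham replicate 2.

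Tested directly, the Gsx1 cords were not told apart from the injured controls of the same day. With edgeR's quasi-likelihood test 0 of 16314 genes (0%) were called, 338 had an unadjusted p under 0.05, and the smallest adjusted p was 1. DESeq2 also called 0, with 411 at an unadjusted p under 0.05. Both numbers are smaller than a threshold of 0.05 would pass among 16314 evenly spread p-values. The p-values of this contrast thus ran high, and the reason was not tested. The lack of calls does not show that the groups were alike. The median SE of the log2 difference was 0.20 and its median 95% interval reached 0.41 to each side, and in 85.8% of genes it reached less than 1. For Lyz2 the difference was 0.33 with an interval of -0.49 to 1.16, for Ccnb1 0.23 (-0.66 to 1.12), for Vim -0.03 (-0.76 to 0.70), for Nes 0.01 (-0.73 to 0.75) and for Snap25 -0.17 (-0.71 to 0.37).

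Differences whose own interval left 0 did so without adjustment. The genes were named from contrasts that hold the same Gsx1 libraries, so these intervals are not independent of that choice. Slamf7, Ncmap, Ogn, Osr1 and Wnt6 were named for the size of such a difference, which favours the direction seen here. Among genes named here, Tmem119 was 0.56 higher in Gsx1 cords (0.12 to 0.99), at 70.2, 53.5 and 45.8 CPM against 39.0, 39.7 and 36.6 CPM, and all 3 Gsx1 values lay above the controls. P2ry13, a purine receptor of microglia, was 0.64 higher (0.11 to 1.16) and Aldh1l1 0.23 higher (0.01 to 0.44). Slamf7 was 1.96 higher (0.07 to 3.85), with overlapping groups. The difference was -1.16 for Col1a2 (-2.25 to -0.06), at 191, 123 and 138 CPM against 510, 186 and 312 CPM. It was -0.51 for Vegfa (-1.01 to -0.01), -2.33 for Ncmap (-3.78 to -0.88) and -2.58 for Ogn (-4.21 to -0.95), and Osr1, Wnt6 and Xist also had intervals below 0. Over whole lists the median difference between Gsx1 and injured control was 0.47 for microglia, -0.74 for matrix, -1.27 for neutrophil, -1.55 for meningeal, -2.33 for Schwann cell and -4.54 for skeletal muscle genes, beside 0 for all genes. The muscle genes summed to 28.7, 3.74 and 327 CPM in the controls and to 5.47, 7.32 and 6.12 CPM in Gsx1 cords. With 0 muscle genes called in this direct test and overlapping sums, no difference was shown by it. Against the shared sham libraries, 7 of 10 muscle genes were called higher in injured controls and 0 in Gsx1 cords. The part of such tissue in the matrix difference was not tested. Set side by side against the shared sham libraries, Gsx1 and injured control had 6148 and 5788 called genes (37.7% and 35.5%).

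**Figure D4:**
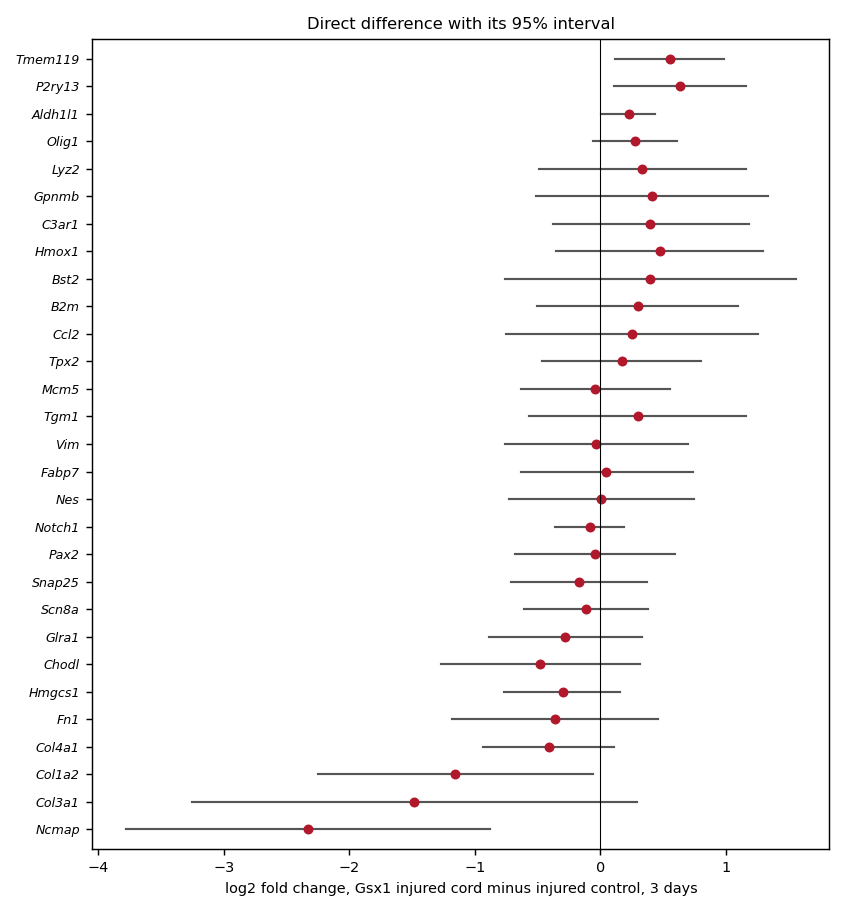
Log2 difference between Gsx1 and injured control cords at 3 days (horizontal axis) for 29 genes, with its 95% interval from edgeR (bar), unadjusted. None was called after adjustment. Tmem119 (0.56), P2ry13 (0.64) and Aldh1l1 (0.23) lie above 0 with their intervals, and Col1a2 (-1.16) and Ncmap (-2.33) below. Ncmap was named for its fall against sham in the same Gsx1 libraries.

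The difference from sham was also compared between days. It changed from 3 to 35 days for 142 genes (0.87%), higher at 35 days for 26 (0.159%) and lower for 116 (0.711%). Cell division genes were among the latter. Pbk, a mitotic kinase, was at 0.201 ± 0.198 CPM in sham and 18.5 ± 10.2 CPM in Gsx1 cords at 3 days (SD, n = 3 each), and at 0.303 ± 0.263 CPM (SD, n = 3) and 1.25 ± 0.265 CPM (SD, n = 4) at 35 days. Of the mitosis list 5 of 20 and of the replication list 5 of 20 members were lower at 35 days, with median changes of -2.12 and -1.25 on the log2 scale. Among neuronal lists 0 members were called, with median changes of 0.48 to 0.80, and among interferon genes 0 of 20 (median -1.69).

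Genes of meninges and fibroblasts went the other way. Ogn, a small proteoglycan, was at 23.0 ± 7.06 CPM in sham and 6.02 ± 1.91 CPM in Gsx1 cords at 3 days (SD, n = 3 each), and at 2.7 ± 0.235 CPM (SD, n = 3) and 23.6 ± 18.6 CPM (SD, n = 4) at 35 days. Sham cord itself thus differed between the days for this gene. Of 6 meningeal genes 4 were called higher at 35 days (median change 3.66). How much meninges the pieces held on each day cannot be told apart from the effect of the injury. The count of 142 rested on the libraries used. It was 24 to 58 without any 1 of sham replicates 1 to 3 of either day, Gsx1 replicate 1 of day 3 or Gsx1 replicates 1, 2 and 4 of day 35. It was 343 without Gsx1 replicate 3 of day 3 and 5 with low-Xist libraries alone.

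**Figure D5:**
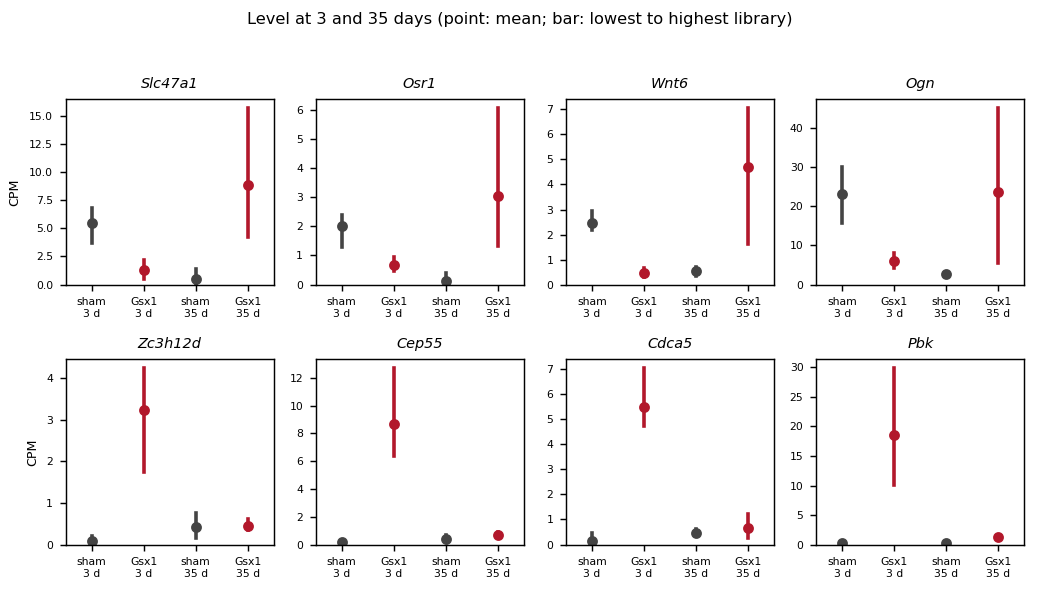
Level (CPM, vertical axis from 0) of 8 genes whose difference between Gsx1 and sham cord changed from 3 to 35 days; points are means and bars run from the lowest to the highest library (n = 3, and 4 for Gsx1 at 35 days). Slc47a1, Osr1, Wnt6 and Ogn lay below sham at 3 days and above it at 35 days. These 4 were not called against sham at 3 days, and the difference at 35 days alone was not tested. Zc3h12d, Cep55, Cdca5 and Pbk stood apart from sham at 3 days.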

How the data were processed

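Per the labels' protocols, both ends of fragments from total RNA were read. The deposited file holds whole-number counts by gene symbol, not normalized (23420 genes, of which 2504 were 0 in all 32 libraries). HISAT2, SAMtools, HTSeq, DESeq2 and the mm10 or GRCm38 build are named, without versions, in the submitters' processing notes. How reads of several loci and strand were handled is not given in the sources used here, so near-identical and overlapping genes are uncertain.

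Counts were tested with edgeR 4.0.16 (R 4.3.3): TMM scaling, filterByExpr (minimum count 10, minimum total 15; 16314 genes left), 1 quasi-likelihood fit of 32 libraries in 10 groups, two-sided contrasts, and Benjamini-Hochberg adjustment over all genes tested, called under 0.05. CPM are TMM-scaled. The SE is the log2 fold change over the square root of F. Folds against 0 sham counts used a floor of 3 counts over the group. The filter, scaling, model, DESeq2 1.42.0, sex, replicate block and each replicate were varied. The main fit was tested on simulated counts for the contrasts of Gsx1 with sham and with injured control at 3 days. Far fewer genes were changed there than were called here, and the other contrasts and alternatives were not simulated.

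Same-numbered sham and Gsx1 libraries of day 3 deviated together from their group means (r = 0.283, 0.217 and 0.125). Gsx1 and injured control libraries did not all do so (0.276, -0.065 and -0.032). Deviations from the mean of a small group depend on each other, and the labels state no pairing. The main fit therefore had no block, and the replicate number was used as a block only in the alternatives named as such. H2-Bl stood at 3.48, 25.5 and 19.1 CPM in sham replicates 1 to 3 and at 1.98, 17.2 and 13 CPM in those of Gsx1. Rpl29 stood at 78.9, 11.1 and 79.4 CPM against 136, 17.9 and 126 CPM. In injured controls the values were 16.3, 11.3 and 17.5 CPM for H2-Bl and 142, 114 and 13.3 CPM for Rpl29. Both genes were covariates in an alternative, and the reason for their levels was not tested. Libraries of 1 group differed by more than sampling noise (chi-square per degree of freedom at least 6.59). Depth limits the precision of low genes, and counting intervals cover counting error only.

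Members and the 43 gene lists (606 genes) were chosen with earlier results of these data known. Named genes were the 10 largest rises and falls among called genes with a mean of at least 1 CPM and groups that did not overlap, up to 5 called genes of smallest p and 2 uncalled genes of highest level per list, and up to 4 genes each way in the other contrasts. Others are said to have been named after their values were seen. Gfap and Hox genes are tissue markers. Some genes are not reported here. Gene positions are from GENCODE and promoter windows from RefSeq, in which 21571 symbols (92.1%) were found.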

Additional observations from a re-analysis of the deposited data

Results flagged for a closer look

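The difference between Gsx1 and sham cord changed from 3 to 35 days by a test of that change itself for 26 genes in the higher and 116 in the lower direction (edgeR's quasi-likelihood test, Benjamini-Hochberg adjusted). The 4 largest changes upward, on the log2 scale, were 6.18 for Slc47a1, a transporter of the meninges, 5.91 for the transcription factor Osr1, 5.53 for the signalling protein Wnt6 and 5.05 for Ogn. Slc47a1 was at 3.69 to 6.82 CPM in sham and 0.467 to 2.21 CPM in Gsx1 cords at 3 days, and at 0.0783 to 1.39 CPM and 4.24 to 15.7 CPM at 35 days. The sham level of these genes was lower at 35 than at 3 days. These 4 were not called against sham at 3 days (adjusted p from 0.0512 to 0.179, edgeR), and the difference at 35 days alone was not tested.

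The 4 largest changes downward were -4.79 for Zc3h12d, -4.67 for Cep55, which acts in the last step of cell division, -4.60 for Cdca5, a regulator of sister chromatid cohesion, and -4.46 for Pbk. Cep55 was at 6.36 to 12.7 CPM in Gsx1 cords at 3 days and at 0.465 to 0.931 CPM at 35 days, while sham stayed at or under 0.704 CPM. Of these 8 genes, 3 were not called with an Xist term in the model, 7 without libraries of mixed sex and 8 with low-Xist libraries alone. All 8 lost the call without sham replicate 3 or Gsx1 replicate 1 of day 3 or sham replicate 1 of day 35, and 1 to 7 did when another single library was left out. The part of attached tissue was not tested.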

How the results depend on the processing

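The 6148 calls against sham (3308 higher, 2840 lower) were 6091 with DESeq2's size factors in edgeR, 6461 with DESeq2, 6603 with the 2 groups alone, 5616 without the filter and 3866 (1557 lower) with low-Xist libraries alone, of which 3740 were also called in the full set. Leaving out 1 library gave 3838 to 5908 calls, 2558 to 3420 higher and 1280 to 2488 lower. Gsx1 against injured control gave 0 under every alternative run. The replicate block gave 6114 calls against sham, 6901 in a fit of the 6 libraries alone (chosen after seeing the data), and 147 for the change between days, where 2 of the 8 named genes, Zc3h12d and Pbk, were not called. Among the named genes called against sham, the block over all libraries ended the calls of Heyl and Rsph1 and of no other.

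The 142 changes between days (26 higher, 116 lower) became 549 with DESeq2 (131 and 418), 1311 with the 4 groups alone (534 and 777), 548 with H2-Bl and Rpl29 in the model (109 and 439), 33 without libraries of mixed sex (4 and 29) and 5 with low-Xist libraries (1 and 4). Leaving out 1 library gave 24 to 343 (3 to 51 higher, 21 to 292 lower). The cause was not tested.

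Of 127 named genes called against sham, 0 lost the call with DESeq2, 4 without the filter, 22 with low-Xist libraries alone and 8 to 17 when 1 library was left out. Signs turned only for genes not called: Cxcl12 to -0.07 without sham replicate 3 (range over left-out libraries -0.07 to 0.24), Foxj1 to -0.01 without sham replicate 2 (-0.01 to 0.28), Mbp to -0.07 without Gsx1 replicate 3 (-0.07 to 0.38), Gapdh to -0.01 and Hey1 to 0 without libraries of mixed sex, and Hoxc9 to 0 with low-Xist libraries. With 3 libraries a group, depth and spread limit genes of a few counts.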
